A study of Mus musculus with 3 samples.

Results

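The genes described here are 10 neuronal cytoskeleton genes, Map1b, Map2, Dcx, Tubb3, Stmn1, Stmn2, Nefl, Nefm, Marcks and Gap43, taken by name out of 21028 protein-coding genes of the GENCODE mouse M21 annotation (GRCm38) that have a 3'UTR. They were followed in Ago2 HITS‐clip peaks of N2A, a mouse neuroblastoma cell line of neural crest origin. The series has 1 group of 3 libraries, named N2A basal replicates 1 to 3, with no treatment, no input library and no library without antibody. Cells were UV crosslinked, first at 400 mJ/cm2 and then 2 more times at 200 mJ/cm2, and RNA bound to Ago2 was pulled down with antibody clone 2D4. The labels do not say whether the samples were separate cultures, so the spread given below may be technical.

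The neuronal cytoskeleton is built from microtubules, neurofilaments and a cortical actin layer. Microtubules are polymers of tubulin that are bundled and stabilised by microtubule-associated proteins and loosened by stathmins, while neurofilaments set the calibre of axons. Ago2 is the protein that carries microRNAs, and it finds its targets mostly in 3'UTRs through pairing with the microRNA seed, the bases near the 5′ end of the small RNA. HITS‐clip recovers the stretches of RNA that were in contact with Ago2 when the cells were irradiated.

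Only Map1b and Marcks had stretches of 3'UTR that lay under a same-strand peak in every library. Such stretches, of at least 8 nt, are called recurrent regions here. Map1b, a large microtubule-associated protein of growing axons, had 20 of them and Marcks, a membrane protein that binds actin, had 5, while the other 8 genes had none. Recurrent regions were found in 3011 of all 21028 genes (14.3%), so 2 of 10 genes is close to the background. By the number of regions Map1b held joint rank 5 among all genes, and only 6 genes had 20 or more. By the share of the 3'UTR in regions, which takes its length into account, it held rank 50. The rank by number rested on replicate 1: without it Map1b had 15 regions at rank 195 and with coverage in at least 2 libraries 11 at rank 502, while its ranks by share were then 185 and 183.

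The sequences shown first are those on which the Map1b and Marcks regions can be read against microRNA seeds. A seed match is the reverse complement of microRNA bases 2 to 8, and an 8mer is such a match followed by an A. The mature microRNAs below, from RefSeq (GRCm38.p6), are among those with a seed match inside a recurrent region and a peak over their own arm in all 3 libraries, and the capitals mark bases 2 to 8.
miR-22-3p: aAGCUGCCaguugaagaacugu
miR-23a-3p: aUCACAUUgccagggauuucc
miR-142a-5p: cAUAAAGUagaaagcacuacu
miR-142a-3p: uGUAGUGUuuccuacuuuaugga
miR-155-5p: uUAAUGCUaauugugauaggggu
miR-340-5p: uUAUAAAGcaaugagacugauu
The arms of miR-142a-5p and miR-142a-3p come from a single hairpin. A peak over an arm says that reads piled up there and gives no level of the microRNA.

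Sites of 4 of them in the Map1b 3'UTR, on the minus strand of chromosome 13, are written below in the sense of the mRNA with the match in capitals. The 4 sites chosen here lack the following A, unlike the 8mers of Map1b.
miR-22 site in Map1b: aacttctcagtGGCAGCTgtgctcggtcat
miR-23a site in Map1b: acttattttttAATGTGAgacagcaagttt
miR-142a-5p site in Map1b: caaaaaccgagACTTTATgaattcatttca
miR-340 site in Map1b: atttatttagcCTTTATAttattttgtttt
The seed matches themselves occupy chr13:99423771-99423777, chr13:99424805-99424811, chr13:99421945-99421951 and chr13:99423154-99423160 of GRCm38, in the order of the lines. Marcks, on the minus strand of chromosome 10, had 2 such sites, an 8mer for miR-142a-3p at chr10:37135489-37135495 and a match for miR-155-5p at chr10:37133961-37133967.
miR-142a-3p site in Marcks: gcaggtttacaACACTACAcgttttgaata
miR-155 site in Marcks: aaagagataacAGCATTAgcctttcaataa

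The 3 libraries held 498071 to 829936 peaks, given as genomic intervals with strand and with no read counts. The read depth behind a peak is therefore unknown, and no counting interval can be given. Peaks were 79 nt or wider with medians of 83 to 85 nt, and neighbouring peaks overlap, so the covered share of a transcript part is reported beside the number of peaks. Marker genes leaned towards the labelled cell type. Of 13 neuronal and sympathoadrenal genes, 10 had a 3'UTR peak in every library (23.9% of all genes) and 6 a recurrent region (14.3%). Th, Dbh and Chga lacked such a peak. No gene of the myeloid, erythroid, astrocyte, oligodendrocyte, hepatocyte or muscle lists had a recurrent region. Median 3'UTRs were 139, 376 and 496.5 nt in the erythroid, hepatocyte and muscle lists, 913 nt in the neuronal list and longer in the others. Regions are rarer in short 3'UTRs, as given below, so their absence from the short lists says little. In those 6 lists, 1 of 5 myeloid and 2 of 4 oligodendrocyte genes had a 3'UTR peak in every library, and their part in the results was not tested. Peaks depend on how much of an mRNA is present, so a poorly transcribed gene and a gene without bound Ago2 cannot be told apart here.

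Map1b had the most 3'UTR peaks of the 10 genes in every library. Its longest 3'UTR is 4360 nt long, a single exon at chr13:99421446-99425805 on the minus strand. Peaks with their midpoint in it numbered 35 in replicate 1, 33 in replicate 2 and 44 in replicate 3, or 8.56 ± 1.34 peaks per kb (SD, n = 3). They covered 62.2% of the 3'UTR in replicate 1, 85.2% in replicate 2 and 93.6% in replicate 3. All libraries thus had most of this 3'UTR under peaks, with replicate 1 lowest.

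The 20 recurrent regions of Map1b summed to 2259 nt, or 51.8% of its 3'UTR. This share depended on the libraries and peaks used: it was 79.7% (3476 nt) without replicate 1, 26.2% with peaks of 86 to 200 nt alone and 16.1% with peaks trimmed by 30 nt on each side. They were 12 to 280 nt long with a median of 99.5 nt, against a median of 69 nt over all 7842 recurrent regions of the genome. The longest lay 2566 to 2845 nt past the stop codon at chr13:99422961-99423240, and the region nearest to the annotated end stopped 16 nt short of it. Coverage was spread along the whole 3'UTR. Divided into 5 equal parts from the stop codon, the covered share was 69.1 ± 29.4%, 83.0 ± 23.4%, 86.9 ± 9.72%, 86.6 ± 13.0% and 76.1 ± 16.4% (SD, n = 3), and the ranges over libraries of all 5 parts overlapped. Of the peaks touching the Map1b 3'UTR, 31 of 35 in replicate 1, 24 of 34 in replicate 2 and 36 of 45 in replicate 3 were 86 to 200 nt wide, and the widest was 314 nt. Peaks over 200 nt numbered 0, 6 and 3. Among all peaks of these libraries 24.1%, 31.8% and 42.6% were 86 to 200 nt wide, so the Map1b peaks were wider than most.

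Marcks, the myristoylated substrate of protein kinase C that ties actin to the plasma membrane, came next. Its 3'UTR has 2733 nt at chr10:37133375-37136107 on the minus strand. Replicate 1 had 8 peaks in it, replicate 2 had 17 and replicate 3 had 18, which covered 28.4%, 78.9% and 65.3% of its length. Replicate 1 was well below the other libraries. The 5 recurrent regions of Marcks summed to 345 nt, or 12.6% of the 3'UTR, and ranged from 17 to 150 nt. The largest, at chr10:37135411-37135560, began 548 nt past the stop codon, and the others began at 252, 1855, 2102 and 2413 nt. In replicate 2 a single peak of 830 nt lay over the largest region and beyond it. When replicate 1 was left out, stretches covered in both remaining libraries rose to 10 and 1431 nt, and with peaks of 86 to 200 nt alone no region of Marcks was left while Map1b kept 15.

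**Figure D1:**
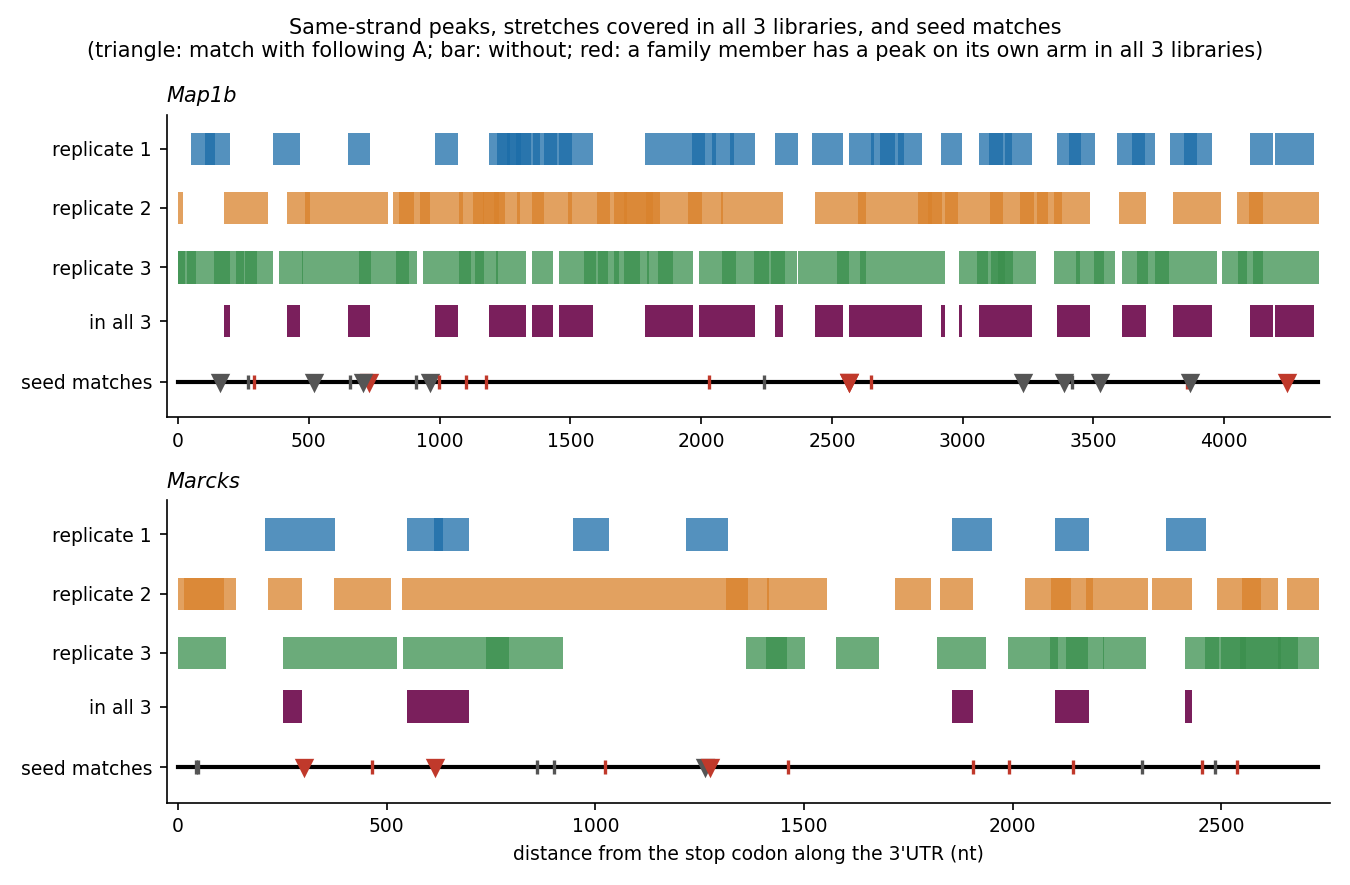
Peaks of each library (upper 3 rows), recurrent regions covered in all 3 libraries (purple) and seed matches (bottom row) along the 3'UTRs of Map1b and Marcks, by distance from the stop codon in nt. The 20 regions of Map1b run the length of its 3'UTR, while the 5 of Marcks sit where replicate 1 has peaks.

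Map2 and Stmn2 also had a 3'UTR peak in every library, which makes 4 of 10 genes with Map1b and Marcks, beside 23.9% of all genes. In neither did the peaks of the 3 libraries meet in 1 place. Map2 is the microtubule-associated protein of dendrites, and its 3'UTR has 3576 nt (chr1:66439008-66442583, plus strand). Replicate 1 had 4 peaks there, replicate 2 had 3 and replicate 3 had 6 covering 8.61%, 8.39% and 13.9% of the length. All 3 values lie below the lowest value of Marcks. Map2 had 3 stretches shared by 2 libraries, at 151 to 229, 246 to 351 and 2291 to 2398 nt past the stop codon.

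Stmn2 (SCG10), a stathmin of growth cones that binds tubulin dimers, differed strongly between libraries. Its 3'UTR has 1281 nt (chr3:8560326-8561606, plus strand). A single peak, 571 to 653 nt past the stop codon, lay there in replicate 1, against 8 peaks in replicate 2 and 9 in replicate 3. The covered share was 6.48% in replicate 1, 42.4% in replicate 2 and 73.6% in replicate 3. Its 4 stretches covered in at least 2 libraries summed to 475 nt, and 1 of them, of 192 nt, reached the annotated end of the transcript.

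Gap43, a growth cone protein of the membrane skeleton, had no 3'UTR peak in replicate 1, 2 in replicate 2 and 5 in replicate 3. Its short 3'UTR of 587 nt (chr16:42248442-42249028, minus strand) was covered to 0%, 29.8% and 78.0%. Replicates 2 and 3 shared 3 stretches of 112 nt in all, between 143 and 270 nt past the stop codon. Stretches shared by at least 2 libraries were thus present in 6 of the 10 genes, Map1b, Map2, Tubb3, Stmn2, Marcks and Gap43, beside 34.6% of all genes. In Tubb3 the stretch was 16 nt of a 3'UTR that is coding sequence in the principal transcript, as described below.

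**Figure D2:**
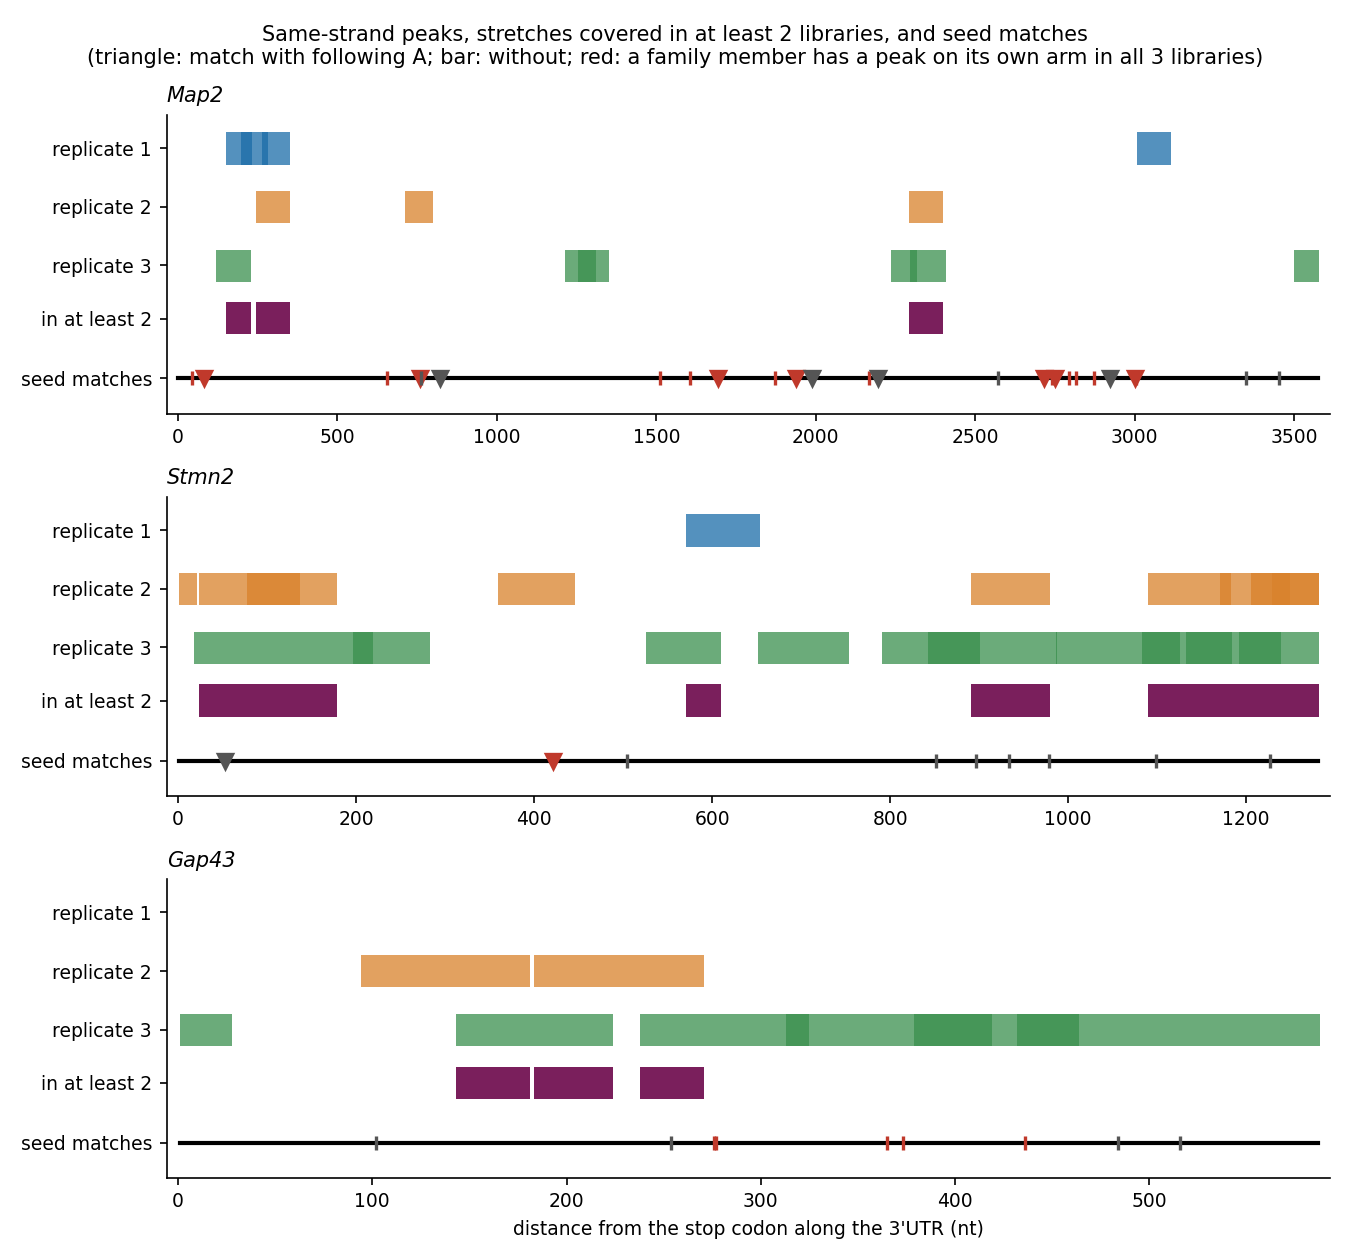
Peaks of each library, stretches covered in at least 2 libraries (purple) and seed matches along the 3'UTRs of Map2, Stmn2 and Gap43, by distance from the stop codon in nt. The 4 peaks of replicate 1 in Map2 and its single peak in Stmn2 share no position with both other libraries, and Gap43 has no peak in replicate 1.

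Tubb3, the neuronal class III beta-tubulin, was a case of overlapping annotation. The longest 3'UTR of the gene, 391 nt of an alternative transcript (chr8:123420704-123421094, plus strand), lies inside the coding sequence of the principal transcript. It held no peak in replicate 1 and 1 midpoint in each of the other libraries, with 26.9% and 23.0% covered. The 333 nt 3'UTR of that principal transcript held 0, 2 and 3 peaks and no stretch shared by all libraries. A stretch of 40 nt in the coding sequence at chr8:123421249-123421288 was under peaks of every library.

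Dcx (doublecortin), which stabilises microtubules in migrating neurons, has the longest 3'UTR of the 10 genes, 7709 nt, and only 1 peak in it, 761 nt wide, in replicate 3. That peak covered 9.87% of the 3'UTR, and both other libraries were at 0%. Stmn1, the ubiquitous stathmin, and Nefl, the light neurofilament chain, had no nucleotide of 3'UTR under a same-strand peak in any library, over 440 nt and 1648 nt. Nefm, the medium neurofilament chain, had 10.2% of 2234 nt under 1 peak of 461 nt in replicate 2, whose midpoint lay outside the 3'UTR, and 0% in the others. The longest 3'UTR of Nefm overlaps Nefl on the opposite strand.

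**Figure D3:**
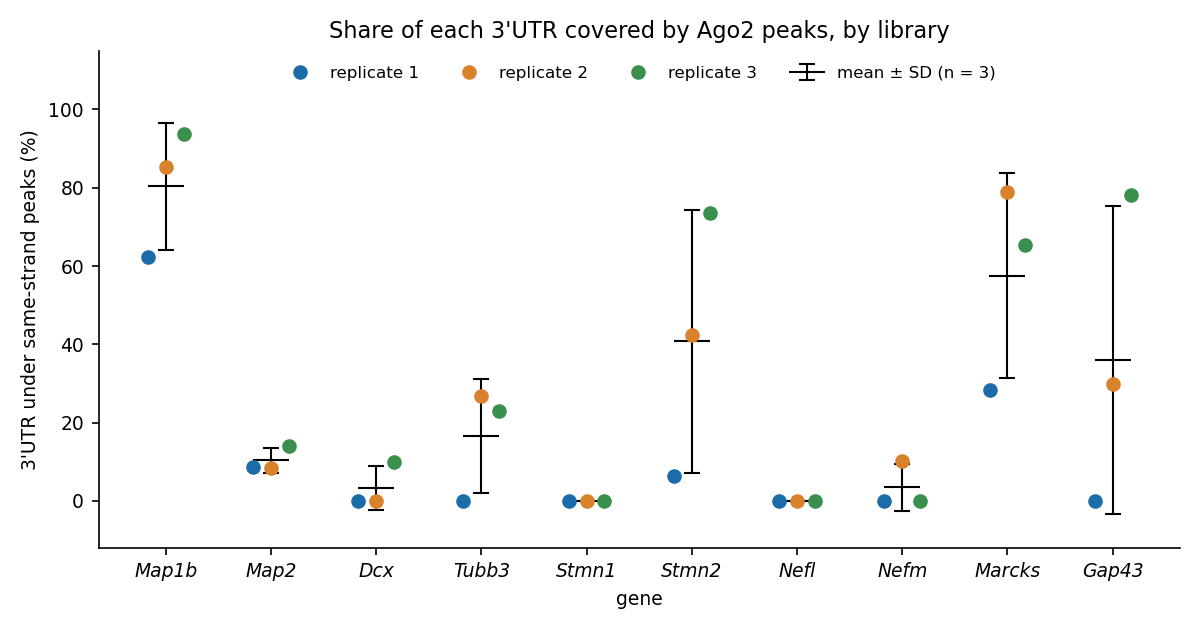
Percent of the longest 3'UTR of each gene under same-strand peaks, 1 dot per library, with the mean and SD over 3 libraries (black). Map1b lies at 62.2% to 93.6%, Map2 at 8.39% to 13.9%, and Stmn1 and Nefl at 0% in every library.

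The length of the 3'UTR matters when these counts are read. Among all genes, the share with a recurrent region rose from 2.04% in the shortest of 5 equal classes of 3'UTR length to 30.3% in the longest, and the share with a peak in every library from 2.88% to 51.0%. Map1b, Map2, Dcx and Marcks fall in the longest class, where 2 of the 4 had a region. Dcx, the longest, had none, and Map1b is shorter than Dcx and has 20. Within genes that have regions, the median was 2 regions and 6.39% of the 3'UTR.

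**Figure D4:**
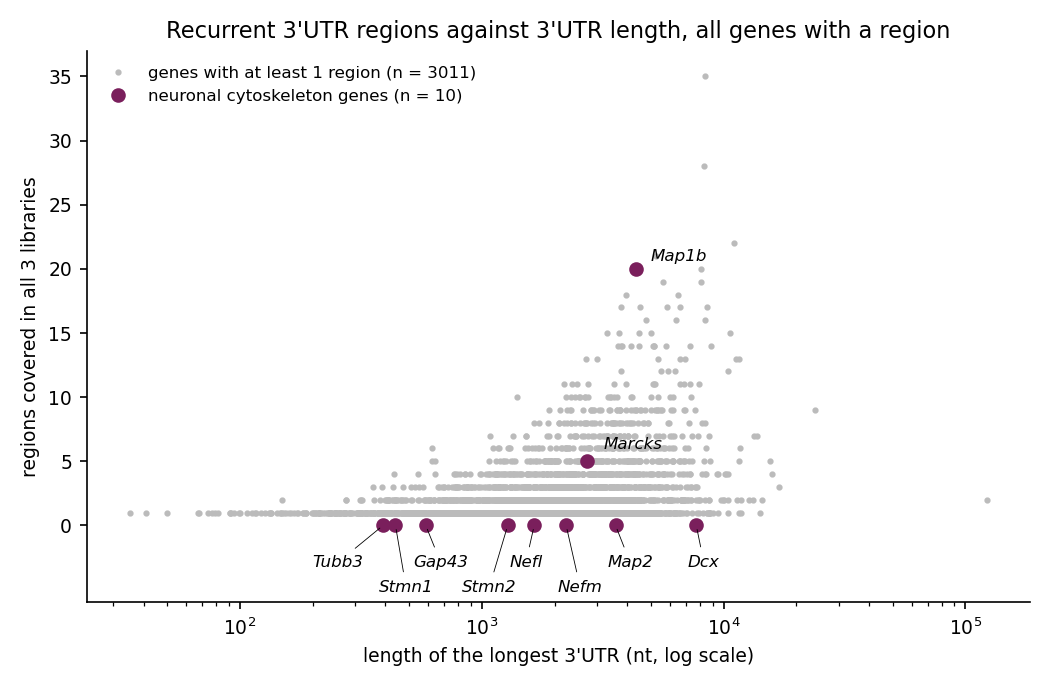
Number of recurrent 3'UTR regions against the length of the longest 3'UTR (log scale) for 3011 genes with at least 1 region (grey) and the 10 neuronal cytoskeleton genes (purple). Map1b at 4360 nt has 20 regions, Marcks at 2733 nt has 5, and the other 8 genes lie at 0.

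Peaks outside the 3'UTR were numerous in the same genes. Of all same-strand peaks in the 10 genes, 22.3 ± 6.46% had their midpoint in the 3'UTR, 19.3 ± 9.13% in coding sequence and 53.6 ± 16.4% in introns (SD, n = 3). Per kb the order was different, with 2.62 ± 0.72 peaks in 3'UTRs, 2.49 ± 1.03 in coding sequence and 0.28 ± 0.12 in introns. The pooled values for 3'UTRs and coding sequence differed by less than the spread between libraries, and introns were below both in every library. Map1b held most of the coding peaks, and the genes were therefore also taken apart after these values were seen. Map1b alone had 8.03, 7.57 and 10.1 peaks per kb of 3'UTR in replicates 1, 2 and 3, against 2.82, 6.31 and 8.19 per kb of coding sequence. The other 9 genes together had 0.631, 1.505 and 1.94 per kb of 3'UTR, against 0.604, 1.07 and 0.873 per kb of coding sequence. The 3'UTR value was thus the higher one in every library in both, by a small margin for the 9 genes in replicate 1. Pooled over all 10 genes it was higher in replicates 1 and 3 but lower in replicate 2, with 2.56 per kb against 2.82 of coding sequence. Replicate 1 was the most intronic, with 71.2% of its peaks in these genes in introns, against 38.8% in replicate 2 and 50.8% in replicate 3.

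Coding sequence of Map1b carried 21 peaks in replicate 1, 47 in replicate 2 and 61 in replicate 3. They left 16 stretches of 997 nt in all that were covered in every library, 13.4% of the 7449 coding nt, against the 51.8% of its 3'UTR. Outside 3'UTRs and coding sequence the longest shared stretch was also in Map1b, 703 nt at chr13:99443168-99443870, which runs from the first exon of a non-coding transcript of the gene into an intron. Stmn2 had a shared stretch of 107 nt at chr3:8554888-8554994, of which 96 nt are coding and 11 nt belong to the intron behind them. Gap43 had 63 shared nt in an internal coding exon at chr16:42292304-42292366. Stmn2 and Gap43 thus had a stretch common to all libraries in coding sequence and none in the 3'UTR.

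**Figure D5:**
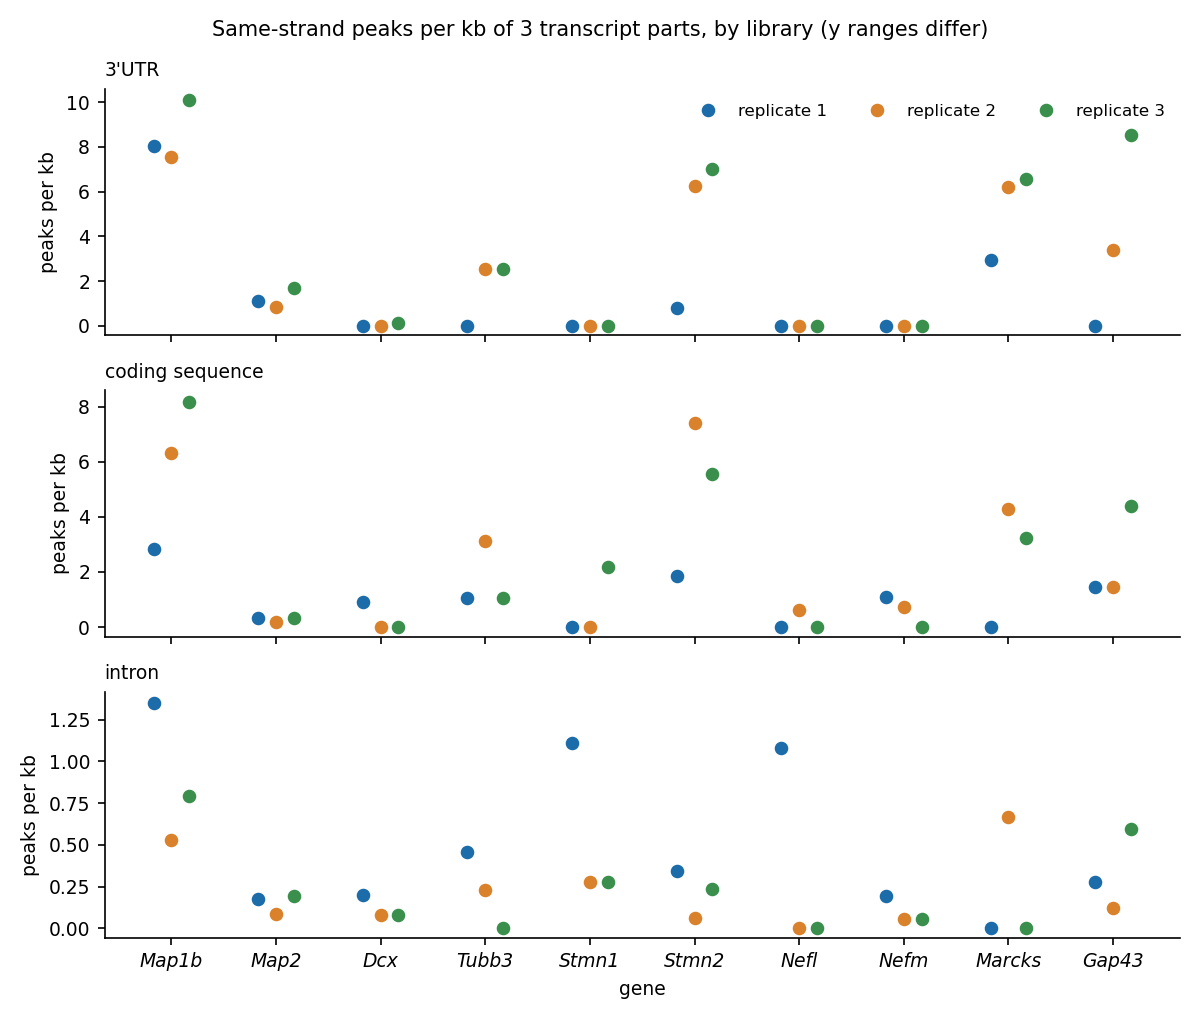
Same-strand peaks per kb of 3'UTR, coding sequence and intron of each gene, 1 dot per library, with a y axis of its own for each panel. In the 3'UTRs of Stmn2, Marcks and Gap43 replicate 1 is lowest, while in introns it is highest for Map1b, Stmn1 and Nefl, among others.

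Introns held most peaks of Gap43, Map2 and Dcx in every library. Gap43 had 26, 14 and 62 same-strand peaks in replicates 1, 2 and 3, of which 25, 11 and 54 were intronic, and 47 nt of intron were covered in every library. Map2 had 52, 28 and 60 peaks with 44, 21 and 48 in introns, and Dcx 14, 6 and 7 with 13, 5 and 5 in introns, and neither gene had an intronic stretch common to all libraries. On the opposite strand the introns of Map2 held 28, 8 and 20 peaks, those of Dcx 4, 4 and 2, and those of Gap43 10, 4 and 8. In Nefm, introns held 11 peaks in all on either strand. In Map1b the intronic count was 107 in replicate 1, 42 in replicate 2 and 63 in replicate 3, an order that differs from that of its coding sequence, against 9, 2 and 6 on the opposite strand. Marcks, whose intron is short, had 0, 1 and 0 intronic peaks.

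Peaks on the opposite strand were used as a background. Over the 10 genes the mean was 3 opposite-strand 3'UTR peaks per library, against 65.3 ± 18.0 on the same strand (SD, n = 3). None of the 10 genes had an opposite-strand 3'UTR peak in all libraries, beside 2.63% of all genes. Map1b had 2, 0 and 1 of them in replicates 1, 2 and 3, Map2 1, 0 and 1, and Marcks, Stmn2, Gap43, Tubb3, Stmn1 and Nefm had 0 in every library. Dcx had 3, 0 and 0 opposite-strand peaks against 0, 0 and 1 on the same strand. By covered share the order was reversed, with 3.09% on the opposite strand in replicate 1 and 9.87% on the same strand in replicate 3. Nefl had 1, 0 and 0 opposite-strand peaks against none. Its opposite strand is that of Nefm, whose span holds all of Nefl, so this is no background for Nefl.

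Seeds of 91 of the 105 microRNAs listed, which form 75 families with a shared seed, were searched in the 3'UTRs. The names miR-124-3p, miR-23b-3p, miR-140-5p, miR-143-3p, miR-145a-5p, miR-185-5p, miR-320-3p, miR-1a-3p, miR-122-5p, miR-133a-3p, miR-150-5p, miR-375-3p, miR-378a-3p and miR-421-3p had no match by name. The 10 genes held 164 matches, of which 92 lay under no peak, 27 under peaks of 1 library, 32 under peaks of 2 and 13 under peaks of all 3. All 13 were in Map1b (11) or Marcks (2). They belong to 12 families, 7 of which have a member with a peak over its arm in every library, as do 37 of the 75 families searched.

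Matches were not denser under the regions of Map1b than beside them. Map1b had 4.87 matches per kb in its recurrent regions and 6.19 per kb in the rest of the 3'UTR, where all genes with regions had 7.75 and 7.28 per kb. Marcks had 5.80 and 6.70 per kb, from only 2 matches in regions. Of the 20 regions of Map1b, 8 held a match, and 12 held none for the seeds searched. Over all 7842 recurrent regions, which are shorter in the median, 36.6% held a match. These counts are small, and no test was made.

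In Map1b, 5 of the 11 matches in regions were 8mers. Among them were 2 for miR-203-3p, 1 for miR-190a-5p and 1 for miR-374b-5p, families without an arm peak in every library. These 4 are shown as examples of matches that include the following A.
miR-203 site in Map1b, 3228 nt past the stop codon: cgataatcctcCATTTCAAttttaaccaat
miR-203 site in Map1b, 3867 nt past the stop codon: ctttatgaattCATTTCAAggcagcatcaa
miR-190a site in Map1b: cccttaacgttACATATCAtagtgaatggt
miR-374b site in Map1b: aatgcctttgcTATTATAAaggctgcacac
The second miR-203 match shares a 149 nt region with the miR-142a-5p match at 3855 nt, and the miR-190a match shares a 127 nt region with a miR-181a-5p match. When peaks were trimmed by 30 nt on each side, 4 of the 13 matches stayed covered in all libraries. Among them were those of miR-142a-5p and the miR-203 match at 3228 nt in Map1b, and that of miR-155 in Marcks.

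The same seed match was covered in 1 gene and bare in another. The seed of miR-23a-3p recurred among the genes. Its match was covered in all 3 libraries in Map1b, its 8mer in Marcks in replicates 1 and 2, its match in Gap43 in replicate 3, and its matches in Map2 and Nefl in none. For miR-21a-5p, the microRNA whose targets the study sought with these libraries, Dcx was the only 1 of the 10 genes with matches. It has 2, the one 974 nt past the stop codon under no peak and the other at 5517 nt under the single wide peak of replicate 3, in a 3'UTR with more peaks on the opposite strand than on its own.

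Stmn2 and Marcks also had matches under peaks of 2 libraries. In Stmn2 these were 5, for miR-218-5p, miR-27a-3p, miR-96-5p, miR-374b-5p and miR-381-3p, all in replicates 2 and 3. Marcks had 14, among them an 8mer for miR-23a-3p and an 8mer for miR-200b-3p. None of the 26 matches in Map2 was covered in more than 1 library, and of the 48 in Dcx 41 were bare.

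The regions were rich in A and T. In Map1b 63.9% of region bases were A or T against 52.4% of the rest of the 3'UTR, and in Marcks 75.1% against 64.3%. Over all genes with regions the values were 64.2% and 57.5%, so regions and rest differed in the same direction in both genes as in the whole set.

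Sequence elements other than seeds were looked for on the mRNA strand. The Pumilio element TGTANATA, bound by PUM proteins, occurs once in the 3'UTR of Map1b, at chr13:99424765-99424772, inside a 91 nt region that also holds the miR-23a match.
Pumilio element in Map1b: ccatgtaggatTGTAGATActccagggaaa
Of the 2064 recurrent regions within 10 nt of that length, 5.72% hold the element. The AU-rich pentamer ATTTA was present in 6 of the 20 Map1b regions, beside 18.4% of all recurrent regions, whose median length is shorter. Among regions within 10 nt of the length of each of these 6, 24.1% to 60% held it. For the Map1b regions without it these shares were 2.60% to 49.3%, so the 6 cannot be read as an excess. It occurred at 3.98 per kb in the regions and 1.90 per kb in the rest of the Map1b 3'UTR, and at 3.14 and 2.00 per kb over all genes with regions. The only poly(A) signal AATAAA of the Map1b 3'UTR lies 39 nt before the annotated end, in a 149 nt region, and 21.9% of the 151 regions within 10 nt of that length hold one. In Marcks 1 of the 5 regions, the largest, held both an ATTTA and an AATAAA.
Poly(A) signal in Map1b: actcagttccacAATAAAatacaaagtggc
Matches to ATTTA and AATAAA can overlap each other and the seed matches, and a match is a description of the letters only.

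Recurrent regions were also counted in other genes of the cytoskeleton. Of 78 further genes in 6 lists, 46 (59.0%) had a 3'UTR peak in every library and 34 (43.6%) a recurrent region, with a median 3'UTR of 1088 nt. Among all genes the shares were 23.9% and 14.3%, with a median 3'UTR of 960.5 nt. The lists were chosen with earlier results of these data known. The 10 genes had 4 and 2, and neither difference was tested. Without replicate 1 a region was present in 49 of the 78 and 6 of the 10 genes, and with coverage in at least 2 libraries in 55 and 6. By role, a region was present in 11 of 23 microtubule-associated and microtubule-end proteins, 2 of 11 tubulins, 2 of 7 intermediate filament genes, 7 of 12 collapsin response mediators and growth cone proteins, 7 of 13 actin, spectrin and ankyrin genes and 5 of 12 motors. The motors Kif1b with 14 regions and Kif5c with 10, and Dpysl3, a collapsin response mediator, with 9, had the most, all fewer than the 20 of Map1b. Pafah1b1 (Lis1), which regulates dynein, had 6 and Mapre2 4. Enah had 4, Sptan1 3, Lmnb1 and Dbn1 2 each, and Vim, Tubb2b and Tubb5 1 each. In Vim that single region took up 66.4% of its 342 nt 3'UTR, a larger share than in Map1b.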

How the data were processed

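The authors deposited 1 table of peaks for Ago2 HITS‐clip of N2A cells, with the chromosome, bounds, strand and library of each peak, called per library. FastQC, cutadapt, STAR and build mm10 are named in the submitters' processing notes; the peak caller and its threshold are not given in the sources used here. The table holds no read counts. Its 1 other value column, a score between 54.6 and 60 of unstated unit, was not used. Starts were read as counted from 0.

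Genes, 3'UTRs after the stop codon (longest of any protein-coding transcript) and other transcript parts came from GENCODE M21. A peak was assigned by its midpoint to the 3'UTR, coding sequence, other 3'UTR, 5'UTR, other exon or intron, in that order. Recurrent regions are stretches of at least 8 nt covered by same-strand peaks in all 3 libraries. An arm counted as under a peak where at least 15 nt overlapped a peak trimmed by 30 nt on each side. Sequences were read from RefSeq GRCm38.p6 with pysam 0.24.0 (Python 3.11.15, pandas 2.3.3). Interval steps were checked on simulated data.

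With 1 group of 3 libraries no p-value was computed. Errors are SDs over libraries. All 10 genes are named, up to 2 genes per cytoskeleton list by number of regions (Tmsb4x, tied with Dbn1, is not described), and microRNAs by matches in regions. The genes and lists were chosen with earlier results of these data known. Some items are not reported here. Alternatives were peak assignment, peak width, strand, merged 3'UTRs, region length, trimming, number of libraries and seed type.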

Additional observations from a re-analysis of the deposited data

How the results depend on the processing

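Leaving out 1 library at a time gave 4 to 6 of the 10 genes whose 3'UTR had a peak in both remaining libraries, 3 to 6 with a recurrent region, 24 to 33 regions in all (15 to 20 in Map1b, 5 to 10 in Marcks) and 16 to 38 seed matches in them. Except for Map1b, which had its fewest regions (15) then, the highest values came without replicate 1, when Map2, Tubb3, Stmn2 and Gap43 also had a region. That of Tubb3, 16 nt, is coding sequence in the principal transcript. All genes ranged from 26.1% to 36.6% for peaks and from 18.9% to 30.3% for regions, and the other cytoskeleton genes from 47 to 56 with a peak and 41 to 49 with a region. For the 10 genes, 3'UTR peaks averaged 56 to 74 per library and 19.3% to 25.7% of all peaks.

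Covered in at least 2 libraries, 6 of the 10 genes, 55 other cytoskeleton genes and 34.6% of all genes had a region, 42.1% of all genes had a peak, and 45 seed matches lay in regions of the 10 genes. With peaks of 86 to 200 nt, 1 of the 10 genes (Map1b, 15 regions), 19 other cytoskeleton genes and 9.25% of all genes kept a region, with 5 seed matches. Trimmed peaks left 22 other cytoskeleton genes, 9.24% of all genes and 4 seed matches. Counting only 8mers gave 6 matches, and matches to bases 2 to 7 gave 56. On the opposite strand, 0 of the 10 genes had a peak or a region in all libraries, with 0 regions, a mean of 3 3'UTR peaks and 4.52% of peaks in 3'UTRs, and 3 other cytoskeleton genes had a peak and 1 a region, beside 2.63% and 0.737% of all genes. Map1b kept 15 to 21 regions under each alternative but the opposite strand (0) and coverage in at least 2 libraries, where neighbouring regions merged into 11. The nt they covered, 2259 as reported, varied far more, from 2392 to 3476 when 1 library was left out (highest without replicate 1), and were 703 with trimmed peaks, 1143 with peaks of 86 to 200 nt and 3903 in at least 2 libraries. Read depth is unknown, so a 3'UTR without a peak is only one in which no peak was called.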

Other observations

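Peaks were also present on the same strand in the 5000 nt past the annotated end of some of the genes, a window that no count above uses. Tubb3 had 2, 3 and 3 of them in replicates 1, 2 and 3, where the gene Def8 follows on the same strand. Marcks had 1 in every library, the nearest 98 nt past the end in replicate 2. Gap43 had 1, 3 and 1, Dcx 3, 1 and 0, Map1b 0, 2 and 1, Stmn2 0, 2 and 1, and Map2 1, 0 and 1. Stmn1, Nefl and Nefm had none in any library. On the opposite strand of the same windows, used as a background, Tubb3 had 11, 5 and 0 peaks, Marcks 1 in every library, Gap43 0, 1 and 0, Dcx 1, 0 and 0, Map2 0, 1 and 1, and Map1b and Stmn2 none. Tubb3, Marcks and Map2 therefore had in all no more peaks there on the same strand than on the opposite one.

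Among coding sequences, Stmn1 had 0, 0 and 1 peaks in replicates 1, 2 and 3, Nefl 0, 1 and 0, and Nefm 3, 2 and 0. On the opposite strand the coding sequence of Nefl also had 0, 1 and 0, and that of Stmn1 and Nefm none. That Nefl peak is the 461 nt peak of replicate 2 given above for Nefm, whose span holds all of Nefl on the other strand. Over the whole of Nefl, 2, 1 and 0 peaks on the same strand stood beside 1, 2 and 0 on the opposite strand. Peaks on that strand can be those of Nefm, so they are no background for Nefl, and no comparison was drawn.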
